A study of Mus musculus with 16 samples.

Results

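The genes encoding Polycomb complexes were examined in mouse late 2-cell embryos for 2 histone modifications, H3K27ac and H3K4me3. The 10 genes, Ezh1, Ezh2, Eed, Suz12, Jarid2, Ring1, Rnf2, Pcgf1, Pcgf6 and Bmi1, were taken by name from a RefSeq gene table of GRCm38 that holds 21883 protein-coding genes on chromosomes 1 to 19, X and Y. All 10 were found and all lie on autosomes, with Ezh1 and Suz12 sharing chromosome 11 and Ezh2 and Pcgf1 sharing chromosome 6. Embryos were collected 36 h after fertilization. Control embryos had received an injection of H2O as zygotes, and mutant embryos an injection of Hdac1 mutant mRNA. The labels give neither the mutation nor the mouse strain, and the controls received no mRNA. The 16 libraries formed 8 groups of 2, an immunoprecipitation and an input group for each mark and condition, and the labels do not say whether libraries came from separate pools of embryos. Chromatin was profiled by ultra-low-input native ChIP-seq (ULI-NChIP-seq), in which unfixed chromatin is cut with micrococcal nuclease before immunoprecipitation, so that small numbers of embryos suffice.

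Polycomb proteins act in a pair of complexes that keep developmental genes silent. Polycomb repressive complex 2 (PRC2) places methyl groups on lysine 27 of histone H3, the residue whose acetylated form is H3K27ac, so both modifications cannot sit on the same residue. Polycomb repressive complex 1 (PRC1) places ubiquitin on histone H2A and compacts chromatin. Hdac1 encodes a histone deacetylase. H3K27ac typically accompanies active enhancers and promoters, and H3K4me3 accompanies promoters. The marks described here lie on the genes that encode the Polycomb subunits. Polycomb proteins, H3K27 methylation and transcripts were not analysed here, so the embryonic stage could not be checked against marker expression.

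Each mark and condition was represented by a single deposited peak list that serves 2 immunoprecipitation libraries. The lists held 77349 control and 122487 mutant H3K27ac peaks, and 86798 control and 85780 mutant H3K4me3 peaks, on the chromosomes used. They carry positions only, so the depth and the height of each peak are unknown, and no replicate error can be given for any value below. All differences are therefore differences between 2 lists, without a test. Each list pools embryos, and a mark present in fewer cells cannot be told apart from a mark that is weaker in every cell. The gene table gives no exons or untranslated regions, so peaks are placed relative to gene ends and listed transcription starts.

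H3K4me3 lay over the transcription start of every member whose start was known, in both conditions. RefSeq promoter entries gave a start for 9 of the 10 genes, all but Pcgf1. H3K4me3 covered the start of 9 of 9 genes in control and 9 of 9 in mutant embryos, where the share of 17491 protein-coding genes with a listed start was 67.4% and 63.5%. Accordingly 0 of 9 had it in one list alone, against 7.67% of all genes for control and 3.85% for mutant embryos. H3K27ac covered fewer of the starts. In control embryos it covered the starts of Ezh2, Eed, Suz12, Jarid2, Rnf2 and Pcgf6, 6 of 9 genes against 36.1% of all genes. In mutant embryos it covered those of Ezh1, Ezh2, Eed and Pcgf6, 4 of 9 against 29.3% of all genes. The starts of Suz12, Jarid2 and Rnf2 were thus under H3K27ac in the control list alone, 3 of 9 genes against a background of 17.5%. Ezh1 was the single member with the mutant mark alone, against 10.7% of all genes. Ring1 and Bmi1 had no H3K27ac over the start in either list. These shares rest on 9 genes and have no test.

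**Figure D1:**
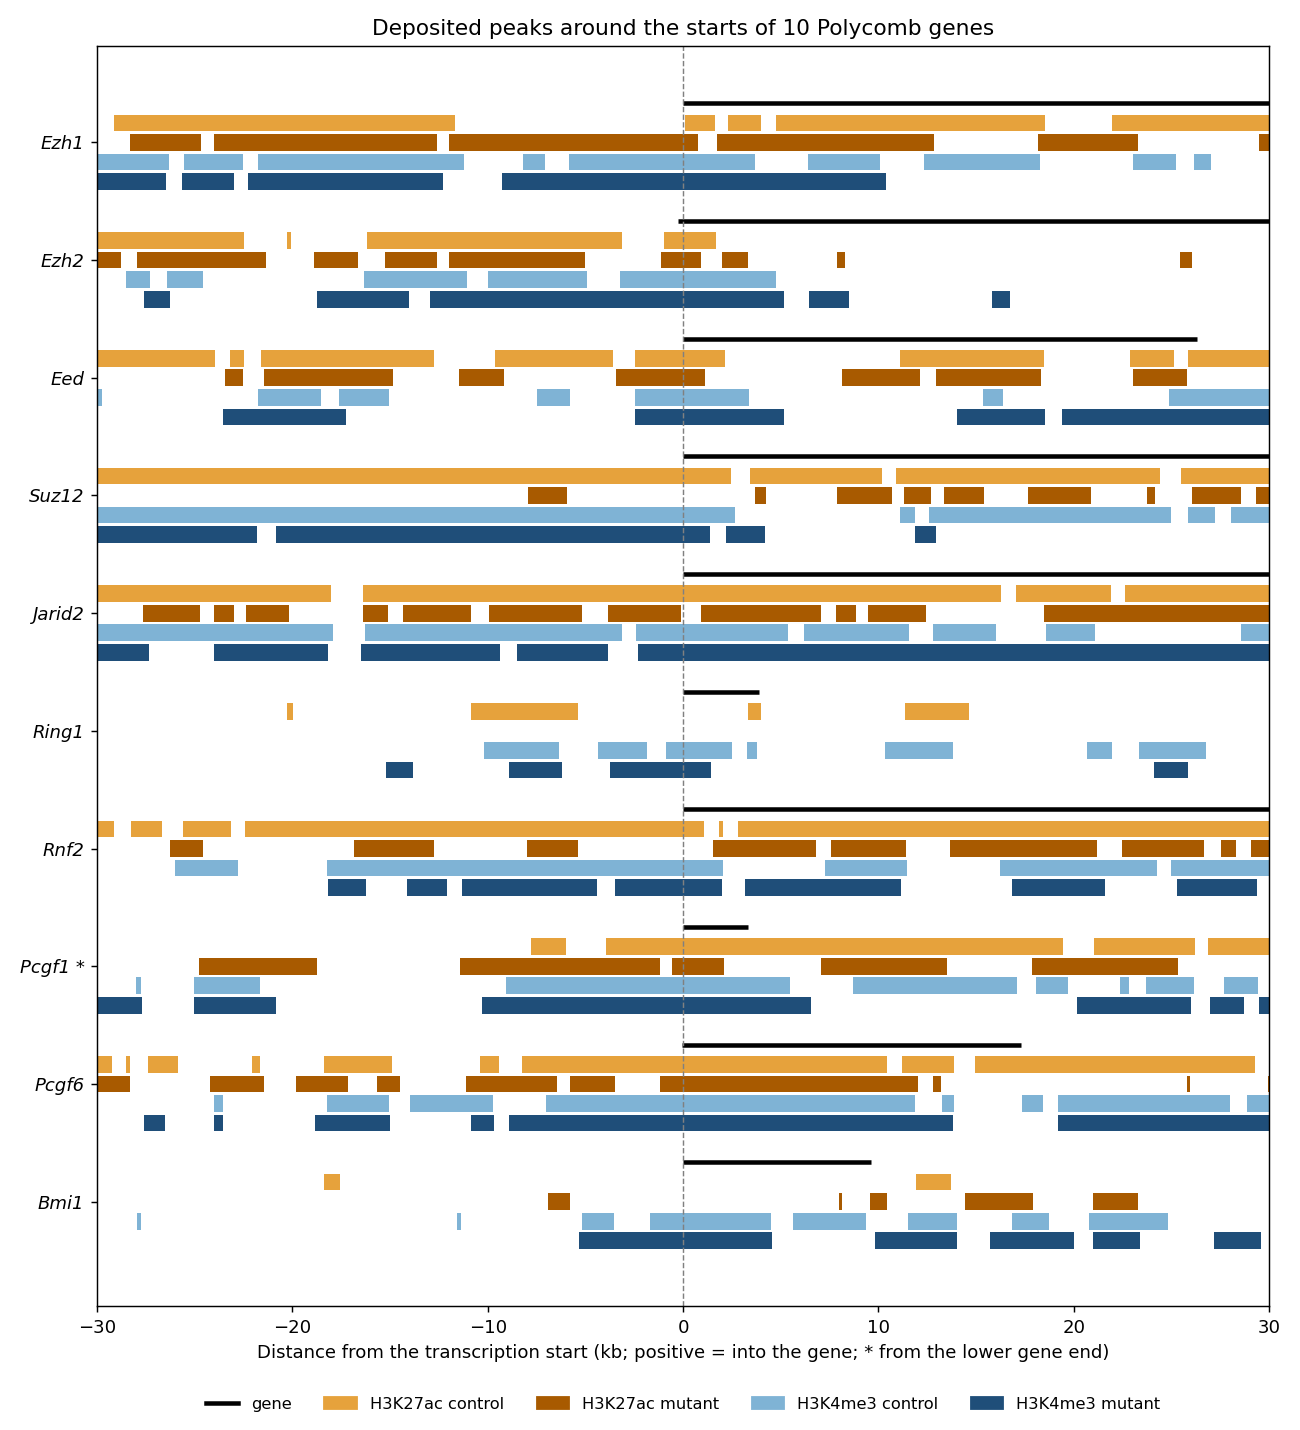
Peaks of the 4 lists within 30 kb of the start of each gene, with distance in kb on the horizontal axis and positive values running into the gene (for Pcgf1, from the end with the lower coordinate). Bars are peaks, cut at the edges of the plot, and black lines are genes; H3K4me3 crosses the dashed line at 0 in both conditions for 9 of 9 genes with a listed start, whereas H3K27ac crosses it in the control list alone at Suz12, Jarid2 and Rnf2, in the mutant list alone at Ezh1 and in neither at Ring1 and Bmi1.

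The sequences before 6 of these starts are given so that each H3K27ac pattern just described is represented. Suz12, Rnf2 and Jarid2 had the mark over the start in control embryos, Ezh1 in mutant embryos, Ezh2 in both and Bmi1 in neither. Each line holds the 250 bases before the start, 5′ to 3′ on the strand of the gene, from RefSeq on GRCm38.p6, and for Jarid2 the first of 2 listed starts was taken. Capitals mark matches, on either strand, to the GC box GGGCGG, the CCAAT box CCAAT, the E-box CACGTG and the E2F motifs TTTCCCGC and TTTGGCGC.
Suz12 chr11:79992856-79993105 (+): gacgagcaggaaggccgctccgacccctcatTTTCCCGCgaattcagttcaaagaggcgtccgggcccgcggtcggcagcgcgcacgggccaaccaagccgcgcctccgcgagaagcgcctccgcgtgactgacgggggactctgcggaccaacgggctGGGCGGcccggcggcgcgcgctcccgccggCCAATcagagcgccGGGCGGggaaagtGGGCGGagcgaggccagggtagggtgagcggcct
Rnf2 chr1:151500992-151501241 (-): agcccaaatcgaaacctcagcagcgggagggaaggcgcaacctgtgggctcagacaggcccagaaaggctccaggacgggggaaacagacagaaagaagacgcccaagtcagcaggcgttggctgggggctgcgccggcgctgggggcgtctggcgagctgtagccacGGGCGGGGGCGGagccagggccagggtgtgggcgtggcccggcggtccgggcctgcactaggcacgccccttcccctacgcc
Jarid2 chr13:44730524-44730773 (+): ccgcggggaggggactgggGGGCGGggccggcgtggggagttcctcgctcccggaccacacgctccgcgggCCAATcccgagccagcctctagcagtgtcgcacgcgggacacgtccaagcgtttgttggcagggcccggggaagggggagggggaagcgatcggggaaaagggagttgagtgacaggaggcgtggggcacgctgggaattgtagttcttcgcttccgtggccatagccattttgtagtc
Ezh1 chr11:101226464-101226713 (-): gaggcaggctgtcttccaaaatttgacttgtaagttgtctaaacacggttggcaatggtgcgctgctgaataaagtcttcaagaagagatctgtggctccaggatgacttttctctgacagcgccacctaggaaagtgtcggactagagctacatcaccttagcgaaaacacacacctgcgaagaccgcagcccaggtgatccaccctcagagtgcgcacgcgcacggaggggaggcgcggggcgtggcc
Ezh2 chr6:47595031-47595280 (-): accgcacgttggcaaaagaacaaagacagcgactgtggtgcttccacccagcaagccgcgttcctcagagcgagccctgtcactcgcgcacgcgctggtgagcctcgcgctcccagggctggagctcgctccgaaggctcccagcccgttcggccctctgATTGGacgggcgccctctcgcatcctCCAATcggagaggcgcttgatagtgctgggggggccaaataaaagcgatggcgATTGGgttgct
Bmi1 chr2:18676768-18677017 (+): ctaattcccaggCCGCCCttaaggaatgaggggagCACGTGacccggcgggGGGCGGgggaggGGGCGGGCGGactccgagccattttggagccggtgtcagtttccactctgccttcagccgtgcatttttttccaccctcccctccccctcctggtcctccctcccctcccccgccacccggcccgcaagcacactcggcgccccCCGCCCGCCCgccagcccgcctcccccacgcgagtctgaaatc

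All 6 hold more CpG than the median of 10 CpG per 250 bases over 21262 promoter entries of protein-coding genes. The count was 37 at Suz12, 20 at Rnf2, 23 at Jarid2, 14 at Ezh1, 23 at Ezh2 and 21 at Bmi1. The GC box was present at Suz12 (3 matches), Rnf2 (2), Jarid2 (1) and Bmi1 (6, in part overlapping each other), and in 42.6% of all promoters. CCAAT boxes were found 3 times at Ezh2 and once each at Suz12 and Jarid2, and 35.4% of all promoters hold at least 1. Ezh1 held no match to any of them. An E2F motif, found in 1.7% of promoters, occurred at Suz12, and an E-box, found in 6.6%, at Bmi1. The other promoters held 12 CpG and no match at Eed, 30 CpG and 2 GC boxes at Ring1, and 14 CpG and 1 GC box at Pcgf6. These matches describe the letters of the windows and not binding. In mutant embryos H3K27ac covered 0 of the 250 bases at Suz12 and Rnf2, 167 bases before the first Jarid2 start and 0 before the second, which holds 22 CpG and 1 GC box, and all 250 at Ezh1 and Ezh2.

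Among the PRC2 genes, Ezh1 (chromosome 11, 101191115 to 101226463, minus strand) encodes one of the alternative methyltransferase subunits. In control embryos the nearest H3K27ac peak began 83 bp inside the gene, and none of the 5 kb upstream of the start was covered. In mutant embryos a peak of 12767 bp ran from 11981 bp upstream to 785 bp downstream, and all 5000 bases upstream were covered. Only 7.7% of that peak was also covered in the control list. At the other end of the gene, which lies 390 bp from Cntnap1, H3K27ac filled the window with 4000 bp in the control list and covered 2033 bp in the mutant list. The H3K4me3 peak over the start measured 9499 bp in the control and 19682 bp in the mutant list, and the control peak lay entirely within the mutant one, of which 3 control peaks covered 72.8%. Inside the gene, H3K4me3 went the other way, with 16348 bp in the control and 10409 bp in the mutant list. A wider mutant peak at the start thus stood beside fewer covered bases further in.

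Ezh2 (chromosome 6, 47530274 to 47595270, minus strand) encodes the other methyltransferase subunit. Its start kept a narrow H3K27ac peak of 2620 bp in the control and 2069 bp in the mutant list, and 72.0% of the control peak was covered in the mutant list. Across the rest of the gene, H3K27ac peaks fell mostly at different places, although a mutant peak of 2692 bp lay within a control peak of 7625 bp. The locus, meaning the gene with 2 kb on each side, held 16077 bp in the control and 12590 bp in the mutant list, of which 4688 bp were common. The H3K4me3 peak over the start was 8006 bp wide in control and 18103 bp wide in mutant embryos. The upstream reach was 3229 bp in the control and 12951 bp in the mutant list. Of the mutant peak 82.4% was also covered in the control list, by 3 separate peaks, so the widths reflect the joining of peaks too. Covered H3K4me3 at the locus was 7017 and 14061 bp, and all control bases were also covered in mutant embryos.

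Eed (chromosome 7, 89954654 to 89980976, minus strand) encodes the subunit that binds methylated H3K27 and stimulates the enzyme. The H3K27ac peaks over its start were alike in size, 4607 and 4568 bp, but the mutant peak was set further upstream. At the other end of the gene the window held 3292 bp of H3K27ac in control and 1484 bp in mutant embryos. H3K4me3 at the locus amounted to 9823 bp in the control and 20588 bp in the mutant list, a ratio of 2.10, again with every control base covered in mutant embryos. The largest part of the difference lay at the far end of the gene, where a control peak of 7826 bp and a mutant peak of 14219 bp covered 3428 and 8909 bp of the locus.

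Suz12 (chromosome 11, 79993106 to 80034123, plus strand) encodes the subunit that holds PRC2 together, and it was the member whose H3K27ac at the start and end of the gene exchanged places between the lists. The control start lay in an H3K27ac peak of 34028 bp, reaching 31554 bp upstream toward Utp6, a gene for a ribosomal RNA processing factor, which it overlapped. In mutant embryos 8.3% of that stretch was covered, by 2 peaks, and the nearest H3K27ac peak lay 3660 bp downstream of the start. The window around the start held 4000 bp of H3K27ac in control and 0 in mutant embryos, while the window around the other end held 0 and 3708 bp. The sum over both windows, 4000 and 3708 bp, hides this, because no base was common. Inside the gene 4 control peaks faced 10 mutant peaks, with 34039 and 20750 bp covered.

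H3K4me3 at Suz12 stayed over the start and was shorter inside the gene. The peak over the start measured 39115 bp in the control and 22240 bp in the mutant list, and all of the mutant peak lay within the control one. In mutant embryos 9.1% of the start peak was also under H3K27ac, against 96.7% in control embryos. The gene body held 27087 bp of H3K4me3 in control and 5663 bp in mutant embryos. Bases of the locus under both marks numbered 25938 and 4255.

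Jarid2 (chromosome 13, 44730774 to 44921643, plus strand) encodes an accessory subunit that helps to bring PRC2 to its targets. A control H3K27ac peak of 32680 bp spanned its first start with 16397 bp upstream and 16282 bp downstream. In mutant embryos 7 peaks covered 71.4% of that stretch, and the first start fell in a gap between a peak ending 84 bp upstream and another beginning further downstream. The missing start signal is thus a short interruption, unlike that at Suz12. H3K4me3 over the start measured 7792 bp in the control and 32955 bp in the mutant list, and its downstream reach was 5369 and 30666 bp. That stretch held several separate peaks in the control list, so the widths also reflect whether neighbouring peaks were joined. H3K4me3 at the locus was 35651 and 45405 bp. At the far end, a control H3K27ac peak of 235 bp that fell in the window overlaps the edge of the neighbouring gene Dtnbp1.

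Among the PRC1 genes, Ring1 (chromosome 17, 34020792 to 34024680, minus strand) and Rnf2 encode alternative E3 ubiquitin ligase subunits. Ring1 carried little H3K27ac. A single control peak of 681 bp lay at its far end, and no mutant peak touched the locus, the nearest lying 30841 bp from the start. H3K4me3 over the start measured 3429 bp in the control and 5159 bp in the mutant list. The mutant peak reached 3727 bp upstream and overlapped the neighbours H2-Ke6 and Slc39a7, which lie 1352 and 3585 bp away. A separate control peak of 2541 bp overlapped both neighbours too and reached further upstream.

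Rnf2 (chromosome 1, 151469398 to 151500991, minus strand) was the member with the largest H3K27ac difference at its ends among those marked in both lists. Its control start lay in an H3K27ac peak of 23501 bp, nearly all of it upstream (22442 bp). In mutant embryos 28.3% of that stretch was covered, and the nearest peak began 1539 bp inside the gene. The start window held 3210 bp in the control and 461 bp in the mutant list, and the window at the other end 3115 and 727 bp. Inside the gene the lengths were closer, 29699 and 22948 bp. The H3K4me3 peak over the start measured 20274 bp in the control and 5498 bp in the mutant list, although 81.0% of the control stretch was covered by 4 mutant peaks. Of the mutant start peak 8.4% was also under H3K27ac, against 96.1% in control embryos. Suz12 and Rnf2 thus shared 3 features: wide control peaks of both marks upstream, H3K27ac absent from the start in mutant embryos, and H3K4me3 still over the start in a narrower peak. The size of the last difference depends on joining. With peaks less than 1 kb apart merged, the widest H3K4me3 peak of the locus measured 39115 and 35899 bp at Suz12 and 20274 and 16137 bp at Rnf2.

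The PCGF genes encode subunits that pair with the ligase and set the type of PRC1. Pcgf1 (chromosome 6, 83077552 to 83080855) encodes the subunit of a variant complex directed to CpG islands. Its whole locus of 7304 bp was covered by a control H3K27ac peak of 23390 bp, and 3459 bp of it were covered in mutant embryos. The control peak also overlapped Lbx2, and a mutant peak of 10258 bp beside the gene overlapped Dqx1 and Tlx2. H3K4me3 covered all 7304 bp in both conditions. Pcgf6 (chromosome 19, 47033617 to 47050939, minus strand) belongs to another variant complex. H3K27ac covered its start in both conditions, in peaks of 18654 and 13204 bp, but upstream reach was 8231 bp in the control and 1170 bp in the mutant list. The window at the other end held 4000 bp in control and 0 in mutant embryos. The control peak that filled it measured 14362 bp and also overlapped the gene Ina. The H3K4me3 peak over the start measured 18849 and 22754 bp, and all of the control peak was covered in mutant embryos.

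Bmi1 (chromosome 2, 18677018 to 18686629, plus strand) encodes a subunit of canonical PRC1 and was without H3K27ac in control embryos, where the nearest peak lay 11949 bp downstream of the start. In mutant embryos 2 narrow peaks of 150 and 881 bp lay at its far end, with 1031 bp of the windows covered. The peak of 881 bp lay mostly beyond the end of Bmi1, toward the neighbour Gm46725, which lies 872 bp away. Which of these genes that peak belongs to cannot be told. H3K4me3 covered the start in peaks of 6209 and 9910 bp. Both overlapped Commd3, which ends 786 bp before Bmi1, so the share of either gene in these peaks cannot be told apart.

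The values at the 2 ends of each gene were then summed. A gene was counted as marked when a peak touched the windows of 2 kb on each side of either end. H3K27ac marked 9 of 10 members in control embryos, all but Bmi1, against 54.8% of protein-coding genes. It marked 9 of 10 in mutant embryos, all but Ring1, against 58.0%. H3K4me3 marked 10 of 10 in each condition, against 74.7% and 72.9%, so that 0 members had it in control only (background 6.68%) or in mutant only (4.85%). Ring1 was the 1 member marked by H3K27ac in control only, where the background was 12.5%, and Bmi1 the 1 marked in mutant only, where it was 15.6%. With windows of 5 kb Bmi1 was marked in both lists, and with windows of 1 kb Rnf2 was marked in control only, with 3115 and 0 bp.

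The length covered within these windows was compared next, and a gene was called where the lists differed at least 1.5-fold and the larger value reached 500 bp. All 10 members reached this minimum for both marks. H3K27ac covered fewer bases in mutant embryos at 5 of 10 members, Eed, Ring1, Rnf2, Pcgf1 and Pcgf6, against 38.5% of genes. It covered more at 1 member, Bmi1, against 32.9%. These shares are close to the background at this group size and are not read as a result about the members. Rnf2 went from 6325 to 1188 bp, Pcgf6 from 8000 to 3137 bp, Pcgf1 from 7304 to 3459 bp and Eed from 7292 to 4627 bp. Ring1 had 681 and 0 bp. Eed, with a ratio of 0.635, lay just inside the limit and Jarid2, with 4235 and 2979 bp and a ratio of 0.703, just outside. Ezh1 had 5556 and 5091 bp and Ezh2 2620 and 2069 bp, so that 9 of the 10 genes had a lower value in the mutant list, whether called or not, against 53.7% of genes, but the order turned at Ezh2 with windows of 1 or 5 kb and at Ezh1 with windows of 5 kb or with close peaks merged. At Bmi1 it turned with windows of 5 kb, to 1765 bp in the control and 1214 bp in the mutant list, so that neither its call nor its mutant-only state held, and Ezh1, with 10731 and 16727 bp, was the member called with more. With windows of 1 kb Eed, with 3470 and 2484 bp, was not called, and Suz12 had 2000 bp in both lists. The ratio also moved from 0.927 to 0.531 at Suz12 and from 0.188 to 0.32 at Rnf2 with windows of 5 kb (at Rnf2 to 0 bp in the mutant list with windows of 1 kb), and from 0.703 to 0.438 at Jarid2 with windows of 1 kb. For H3K4me3, 0 of 10 members were called in either direction, against 18.1% of genes with fewer and 20.9% with more bases. The ratios ran from 0.792 at Pcgf6 to 1.08 at Eed, and Ezh1, Ezh2, Jarid2 and Pcgf1 had exactly the same covered length in both lists because their peaks filled the whole window at the start or the whole locus.

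**Figure D2:**
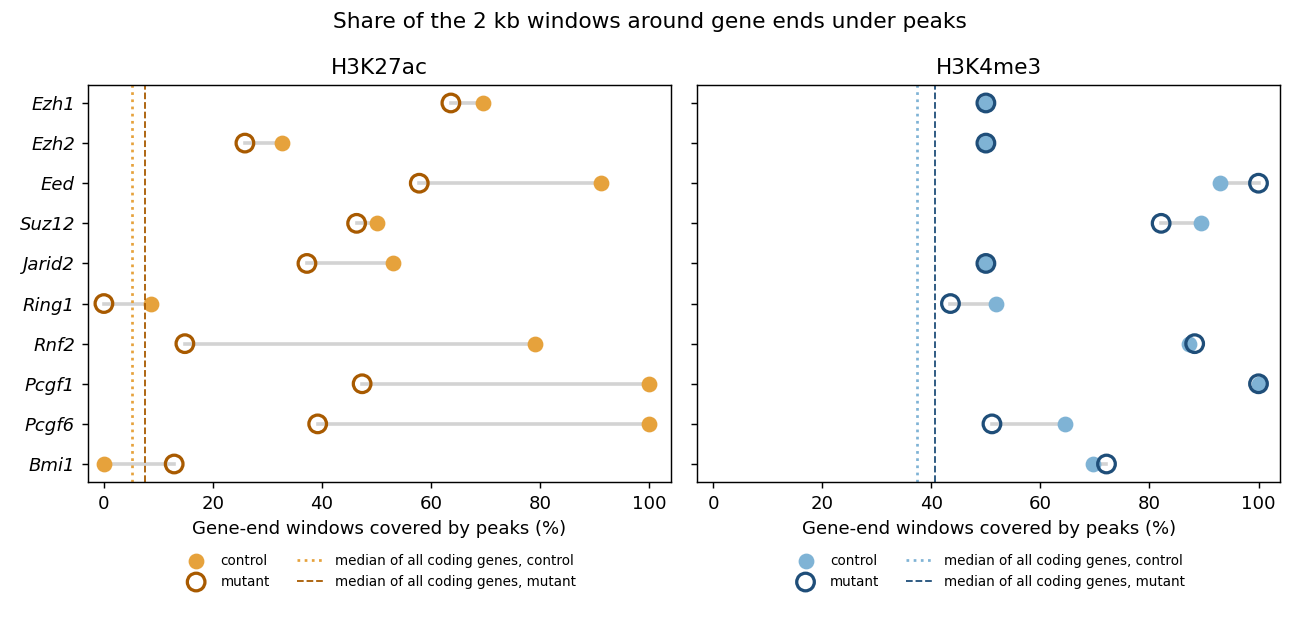
Percent of the gene-end windows covered by H3K27ac peaks (left) and H3K4me3 peaks (right) in each gene, with filled points for control, open circles for mutant and vertical lines for the medians of all protein-coding genes. With these windows H3K27ac is lower in the mutant list at 9 of 10 genes (against 53.7% of genes), while H3K4me3 points lie close together. With other windows H3K27ac turns to higher in the mutant list at Ezh1 and Ezh2 and to lower at Bmi1, and the difference is lost at Suz12.

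The median member had 61.2% of its windows under H3K27ac in control and 38.2% in mutant embryos. Over all protein-coding genes the medians were 5.21% and 7.51%. The H3K27ac length summed over gene ends was nevertheless lower in the mutant list in both sets. The ratio of mutant to control was 0.593 for the members and 0.86 over all genes. For H3K4me3 the medians were 67.1% and 61.6% among members and 37.4% and 40.7% over all genes. In gene bodies, 3 of the 9 members with enough H3K27ac had fewer covered bases, Suz12, Ring1 and Pcgf1, against 34.4% of genes, and 0 had more, against 34.2%. For H3K4me3 in gene bodies, 4 of 10 had fewer bases, Ezh1, Suz12, Ring1 and Bmi1, against 21.7%, and 2 had more, Ezh2 and Eed, against 30.2%. At gene ends H3K4me3 filled the start window in both lists at Ezh1, Ezh2, Eed, Jarid2, Rnf2 and Pcgf6 and the whole locus at Pcgf1, so a difference there could not be seen.

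Over the 10 loci together, H3K27ac covered 216.2 kb in control and 167.1 kb in mutant embryos, a ratio of 0.773. Over the loci of all protein-coding genes the ratio was 0.894. H3K4me3 covered 162.1 and 161.1 kb, a ratio of 0.994, against 1.06 over all genes. Jarid2 is the longest member, and without it the ratios were 0.721 for H3K27ac and 0.915 for H3K4me3. Of the control H3K27ac bases 55.5% were also covered in mutant embryos, and of the control H3K4me3 bases 63.6%. Over all genes these shares were 44.1% and 62.8%. The equal H3K4me3 totals hide opposite differences, with more length at Ezh2, Eed and Jarid2 and less at Ezh1 and Suz12.

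**Figure D3:**
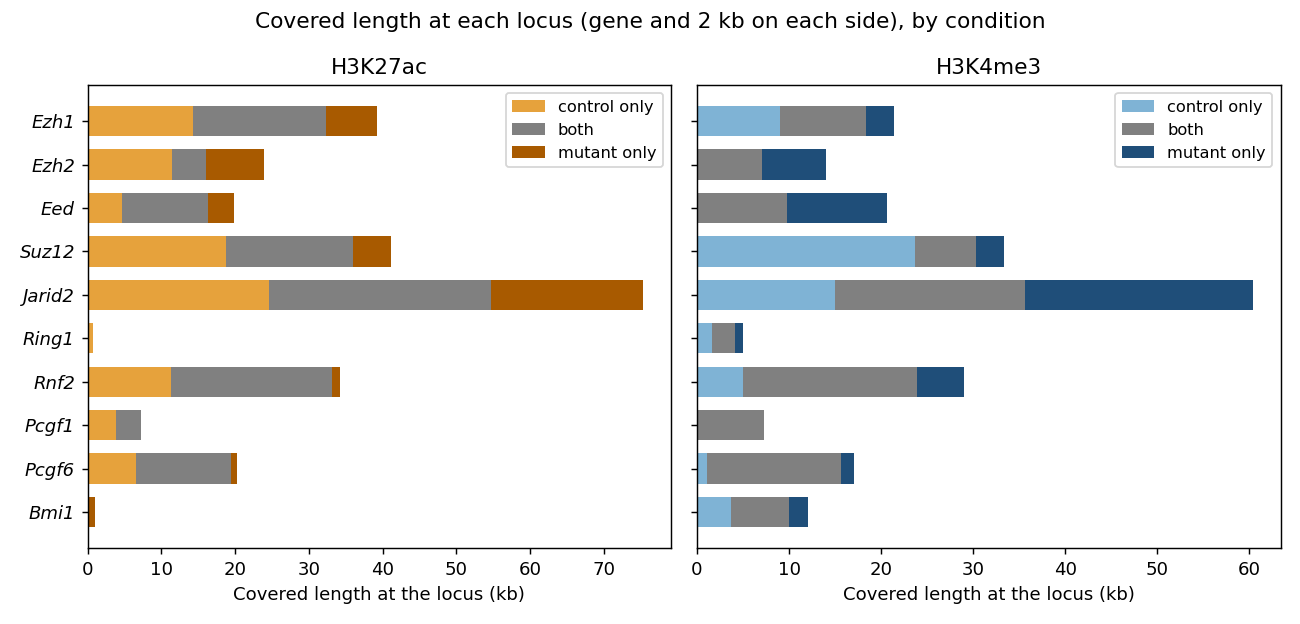
Length in kb covered at each locus (gene and 2 kb on each side) in control only, in both conditions and in mutant only, for H3K27ac (left) and H3K4me3 (right). Suz12 has the longest control-only H3K4me3 segment (23666 bp) and Jarid2 the longest mutant-only one (24701 bp).

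The number and width of peaks differed in opposite directions for the marks. Limits for joining appeared to differ between the lists, as the smallest gap between peaks was 681 and 602 bp in the control and mutant H3K27ac lists and 684 and 734 bp in the H3K4me3 lists. The member loci were touched by 38 control and 52 mutant H3K27ac peaks, and by 44 control and 31 mutant H3K4me3 peaks. Over all protein-coding genes the ratio of these counts was 1.43 for H3K27ac and 0.96 for H3K4me3, and among members it was 1.37 and 0.705. In mutant embryos the widest H3K27ac peak of a locus was the narrower one at 8 of the 8 members with a peak in both lists, against 64.0% of genes. Its width went from 34028 to 4598 bp at Suz12, from 28427 to 7513 bp at Rnf2 and from 32680 to 17094 bp at Jarid2. The smallest difference was at Ezh1, with 15666 and 12767 bp. When all lists were given common limits for joining neighbouring peaks, 7 of 8 remained narrower, and at Ezh1 the order turned, to 15666 and 29088 bp. The widest H3K4me3 peak was wider in mutant embryos at 8 of 10 members, against 62.0% of genes. The exceptions were Suz12 and Rnf2, 2 of 10 with a narrower peak, against 38.0% of genes. With peaks less than 1 kb apart merged, 7 of 10 were wider, since the order turned at Ring1, to 8132 and 5159 bp, and the widths at Jarid2 became 27848 and 32955 bp.

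**Figure D4:**
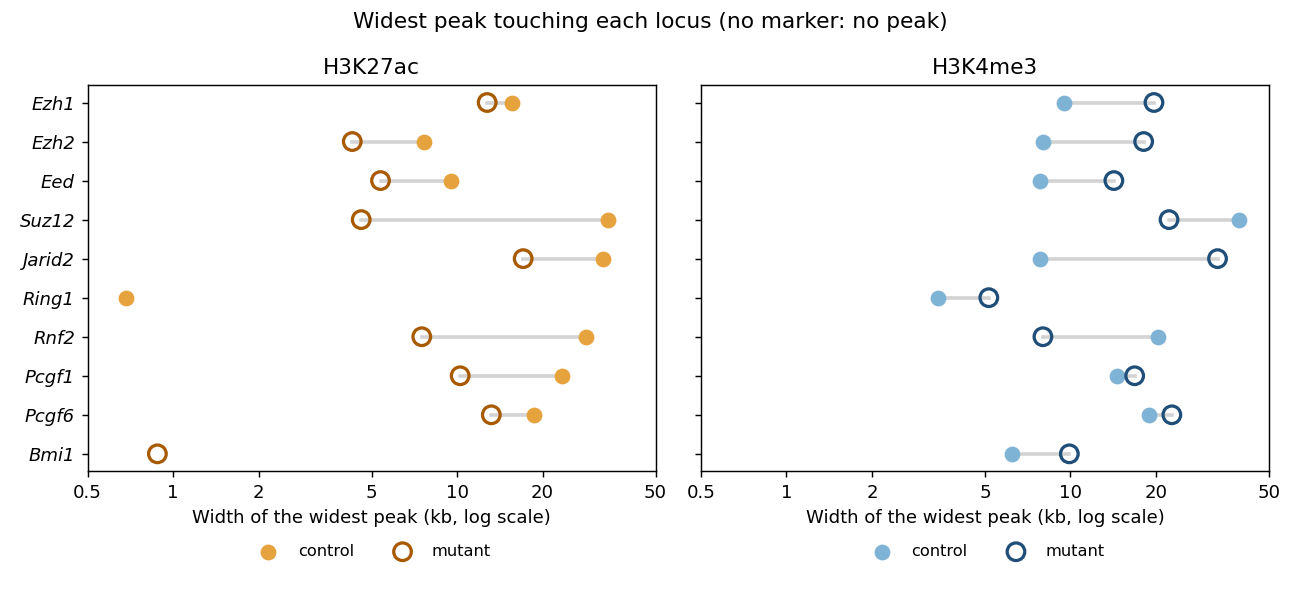
Width in kb, on a log scale, of the widest peak touching each locus in control (filled) and mutant (open) embryos. Mutant H3K27ac peaks are narrower at 8 of 8 genes with a peak in both lists, against 64.0% of all genes (7 of 8 with common joining limits). Mutant H3K4me3 peaks are wider at 8 of 10, against 62.0% of all genes (7 with close peaks merged).

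Bases under both marks at the member loci numbered 128.5 kb in control and 89.9 kb in mutant embryos. This ratio of 0.70 was close to that of all protein-coding genes, 0.699. As a share of H3K4me3 bases, 79.3% in control and 55.8% in mutant embryos were also under H3K27ac, where all genes gave 56.6% and 37.3%. Called by the same 1.5-fold rule, Suz12, Rnf2 and Pcgf1 had fewer such bases, 3 of 9 members with enough of them, against 45.8% of genes, and Bmi1 had more, 1 of 9, against 29.3%. The largest difference was at Suz12, with 25938 and 4255 bp, followed in length by Rnf2, with 22976 and 14642 bp. Jarid2 (30796 and 27895 bp) and Pcgf6 (14872 and 13604 bp) differed little.

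A further 35 genes of the Polycomb system were counted in the same way. They comprised other PRC2 and PRC1 subunits, the PR-DUB genes that remove ubiquitin from H2A, and the H3K27 demethylases. H3K27ac marked 28 of 35 in the control list, against 54.8% of all genes, and 25 in the mutant list, against 58.0%. H3K4me3 marked 34 and 33, against 74.7% and 72.9%. A transcription start was listed for 28 of these genes. H3K27ac lay over a start at 18 of them in the control and 11 in the mutant list, against 36.1% and 29.3% of all genes. H3K4me3 did so at 27 and 26, against 67.4% and 63.5%. Of the 28 with enough H3K27ac at gene ends, 14 had fewer bases and 9 had more in mutant embryos, and 5 were within 1.5-fold, where the background was 38.5% with fewer and 32.9% with more. For H3K4me3, 3 had fewer and 5 more of 34, and 26 were within 1.5-fold, against 18.1% and 20.9% of genes. H3K27ac was present in control only at Phf1, Cbx6, Phc1, Bap1 and Kdm6a, 5 of 35 genes against 12.5% of all genes. It was present in mutant only at Pcgf3 and E2f6, 2 of 35 against 15.6%. The covered length at Phf1 (319 bp) and Cbx6 (436 bp) was under the 500 bp used for calls. Bap1, the ubiquitin hydrolase of PR-DUB, had 4511 bp in control and 0 in mutant embryos, with 4000 bp of H3K4me3 in both. E2f6, a DNA-binding repressor that joins the Pcgf6 complex, had 0 and 1765 bp of H3K27ac, and its H3K4me3 went from 1235 to 4582 bp.

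Kdm6a, an H3K27 demethylase gene on the X chromosome, was the 1 gene of this list with H3K4me3 in control embryos alone, with 4000 and 0 bp (1 of 35, against 6.68% of all genes), and its H3K27ac went from 1794 to 0 bp. Of the 4 X-linked genes of this list with enough H3K27ac, 4 had fewer bases and 0 had more, against 43.5% and 38.6% of X-linked genes. Of the 24 such autosomal genes 10 had fewer and 9 more, against 38.4% and 32.7% of autosomal genes. All 10 members are autosomal. The part of the X chromosome in these counts was not tested. The 3 listed genes nearest to the median member, by Euclidean distance over the 4 covered percentages of the gene-end windows, were Pcgf5, Cbx7 and Mga, at distances of up to 29.4 percentage points. H3K27ac covered 3874 and 4000 bp of the windows at Pcgf5 in control and mutant embryos, 5769 and 1655 bp at Cbx7, and 6198 and 2872 bp at Mga. H3K4me3 covered 4000 bp in both at Pcgf5, 4114 and 4250 bp at Cbx7, and 5074 and 6854 bp at Mga.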

How the data were processed

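Peak lists were deposited by the authors as chromosome, start and end, with no height, score or p-value. Per the labels, 1 list describes both immunoprecipitation libraries of a group, and whether reads were pooled before calling is not given in the sources used here. The 16 samples formed 8 groups of 2 libraries, and the input libraries have no list of their own. Per the submitters' processing notes, the builds were mm10 and GRCm38 and the tools included Trimmomatic, Bowtie2, SAMtools, Picard, MACS2 and deepTools, with no role or setting stated. Starts were read as 0-based and are printed 1-based.

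Genes came from RefSeq GRCm38.p6. The number of peaks, covered bases and widest peak were computed within 2 kb of either gene end, over gene bodies, and over loci, with Python 3.11.15, numpy 2.4.6 and pandas 2.3.3. Strand and starts came from the RefSeq promoter table, a use decided after the lists were seen. The same values were computed for 21883 protein-coding genes as background. Peaks on unplaced scaffolds were left out. No test was possible with 1 list per group. The functions were checked on simulated peaks against a base-by-base count. The members and the list of 35 further genes were chosen with earlier results of these data known. Named were all members, neighbours overlapping their windows and some other genes under their peaks. Of the 35 genes, those whose marked state differed and the 3 nearest to the median member were named. The Utp6 gene was named after its position under a peak was seen. The shares of all genes with any lower value, and by chromosome, were added later. Alternatives changed the window, the joining and minimum width of peaks, the list length, the fold and the region.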

Additional observations from a re-analysis of the deposited data

How the results depend on the processing

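No paired analysis was possible because the libraries behind a list are not listed separately, and for the same reason no replicate could be left out. A stricter score threshold was replaced by dropping peaks under 500 bp. Of the recomputed summary counts and ratios, 103 were unchanged, 6 moved and 1 turned, where unchanged means within 1.5 times the main value and on the same side of 1 for ratios. A count can be unchanged although the genes behind it differ. With windows of 1 kb, Jarid2 took the place of Eed among the members with fewer H3K27ac bases. Lists were made equal in size by dropping the narrowest peaks, which hold little of the covered length. The alternatives on transcription starts, widest peaks and single genes were chosen after seeing the data. In gene bodies in place of gene ends, the number of members with fewer H3K27ac bases was 3 in place of 5 and with more 0 in place of 1, and for H3K4me3 it was 4 and 2 in place of 0 and 0. With a lower fold limit than 1.5, or with peaks less than 1 kb apart merged, 1 member had fewer H3K4me3 bases at gene ends. The ratio of H3K4me3 length over the loci, 0.994, became 1.001 with flanks of 5 kb, so no direction can be given. Of the single genes, the H3K27ac ratio at gene ends was 1.11 at Ezh2 with windows of 1 kb, 1.008 at Ezh2 and 1.56 at Ezh1 with windows of 5 kb, and 1.02 at Ezh1 after merging. With windows of 5 kb the H3K4me3 ratio was 1.07 at Suz12 and 0.988 at Bmi1. The lack of scores and depths limits all values to presence and length of peaks.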
